A study of Mus musculus with 8 samples.

Results

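The contrast described here asks whether splenic regulatory T cells (Tregs) that carry yellow fluorescent protein (YFP+) differ from their counterparts in the same way in SRC-3 knockout mice as in control mice. It uses all 8 libraries of the study, 2 in each of 4 groups. The first difference, called the knockout sort difference, was YFP+ minus YFP- Tregs of SRC-3 knockouts (here KO YFP+ and KO YFP-), whose strain is given as C57BL/6 mixed with 129SvEv. These 4 libraries came from 2 mice, numbered 84 and 85, each sorted into both fractions. The second, called the control sort difference, was YFP+ Tregs of a C57BL/6 wild-type control (WT YFP+, numbers 23 and 24) minus Tregs of a second wild-type control, titled SRC-3ff, on a 129SvEv background (numbers 68 and 72). No mouse bore a tumor, and ages are not given. SRC-3ff has no YFP sort in its label, so strain and sort cannot be told apart in the control sort difference, whereas the knockout sort difference lies within animals. The labels name neither the promoter behind YFP nor the deleted exons.

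SRC-3, encoded by Ncoa3, is a p160 coactivator that nuclear receptors and other transcription factors use to recruit histone acetyltransferases. Tregs are CD4 T cells that depend on the transcription factor Foxp3 and restrain other immune cells. They range from resting cells, which recirculate through lymphoid organs with Ccr7 on their surface, to effector cells, which carry receptors such as Cxcr3, Cxcr6 and Klrg1 and enter tissues.

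Values are FPKM, which count fragments relative to transcript length and to all mapped fragments, and differences are on the log2(FPKM + 1) scale with limma's standard error. Of 55487 genes, 14134 reached 1 FPKM in at least 2 libraries and were tested. A gene was called at a limma p-value, adjusted by the Benjamini-Hochberg method over all tested genes, under 0.05. With 2 libraries a group, an exact permutation test cannot go below p = 0.333. FPKM summed to between 384107 and 416393 per library, read depth is unknown, and between 12573 and 13251 genes reached 1 FPKM. The T cell genes Cd3e (216 to 459 FPKM) and Cd4 (139 to 212 FPKM) were high in every library, while the CD8 gene Cd8a stayed at or below 0.283 FPKM. The other CD8 gene, Cd8b1, measured 4.12 to 12.2 FPKM.

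The outcome was a large block of genes that moved alike in knockouts and controls and a short list of genes that did not. The knockout sort difference was called for 693 genes (4.90% of those tested), 204 higher (1.44%) and 489 lower (3.46%) in YFP+ cells. The control sort difference was called for 1303 genes (9.22%), 527 higher (3.73%) and 776 lower (5.49%), a split of 40.4% higher that became 52.1% under quantile normalization. In 423 genes (2.99%) both were called in the same direction, 92 higher (0.651%) and 331 lower (2.34%). These 423 made up 61.0% of the knockout calls and 32.5% of the control calls. Of the 693 knockout calls, 653 (94.2%) had the same sign in controls, against 9190 of all 14134 tested genes (65.0%). The sort differences correlated across genes with a Pearson r of 0.68 and a Spearman rho of 0.45; the genes are not independent replicates, the libraries share a protocol, and r was 0.57 without antigen receptor segments. The sort differences share no library, although they share 1 estimate of the spread.

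The difference of sort differences, knockout minus control, was called for 68 genes (0.481%), 24 higher (0.170%) and 44 lower (0.311%). At an unadjusted p under 0.05 there were 1477 genes. The median standard error of this contrast was 0.26, its 95% interval reached a median of 0.62 to either side, and the smallest difference called was 0.98. A gene that was not called is therefore not shown to behave alike in knockouts and controls. Leaving out 1 library lowered the count of 68 to between 5 (without KO YFP- 85) and 51 (without WT YFP+ 23). Dropping KO YFP+ 84 left 8, KO YFP+ 85 left 12, KO YFP- 84 left 23, SRC-3ff 68 left 16, SRC-3ff 72 left 30 and WT YFP+ 24 left 17.

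**Figure D1:**
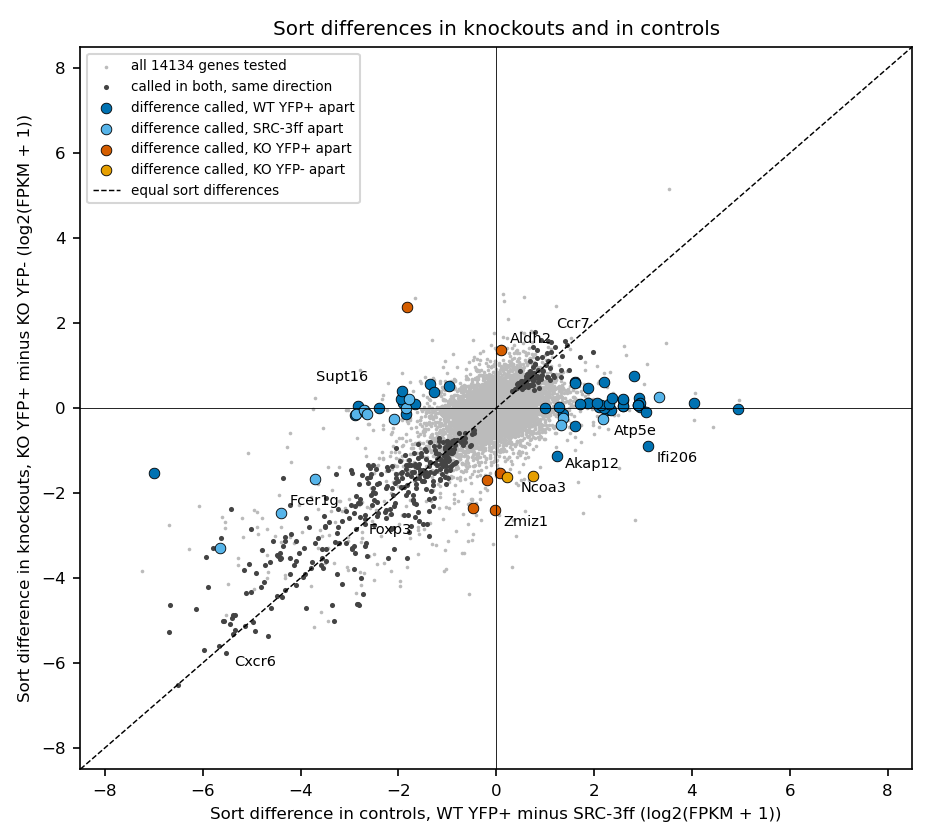
Each of the 14134 tested genes by its control sort difference (x axis) and its knockout sort difference (y axis), both on log2(FPKM + 1), with the 423 genes called alike in dark grey and the 68 genes called in the difference of sort differences coloured by the group that stood apart. Genes called alike lie along the dashed line of equal differences, while most coloured genes lie near 0 on the y axis and far from 0 on the x axis.

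Which group made the sort differences unequal was described by asking which group's removal left the other 3 group means closest together, a rule that gives every gene an answer. Of the 68 called genes, WT YFP+ stood apart in 46, SRC-3ff in 14, KO YFP+ in 6 and KO YFP- in 2. Over all tested genes the shares were 22.4% for WT YFP+, 34.5% for SRC-3ff, 19.3% for KO YFP+ and 23.8% for KO YFP-. A knockout group thus stood apart in 8 of the 68 genes, and a control group in the other 60. No test was made on these shares, since the called genes were selected on the same values.

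The 6 genes with KO YFP+ apart include the targeted gene. Ncoa3 (chromosome 2, 165992636 to 166073242, GRCm38) measured 10.9 and 10.2 FPKM in KO YFP+ and 32.1 and 32.2 FPKM in KO YFP- of the same mice. The control values were 46.3 and 42.7 FPKM for WT YFP+ and 49.7 and 35.4 FPKM for SRC-3ff, so both KO YFP+ libraries lay below all others. The knockout sort difference was -1.52 ± 0.16 (limma adjusted p = 0.005), the control sort difference 0.08 ± 0.16 (adjusted p = 0.79) and their difference -1.61 ± 0.22 (adjusted p = 0.042). The knockout call held without each library in turn (highest adjusted p = 0.048). The call on the difference held in 1 of 8 such fits, without SRC-3ff 68, with an adjusted p of up to 0.17 in the others, and it was lost with the mouse number as a block (adjusted p = 0.078). The difference for Ncoa3 was called in 2 of 7 other settings. Besides the block, it was lost with a pseudocount of 0.1, with no filter, under quantile normalization and without a variance trend. None of the other 17 tested genes of the list of p160 coactivators and their partners was called in either sort difference or in their difference. Over all tested genes 4.90% were called in knockouts, 9.22% in controls and 0.481% in the difference. A lack of calls among so few genes is near those shares.

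Zmiz1 (chromosome 14, 25459185 to 25666743), a PIAS-like transcriptional coactivator, was low in the same cells. It measured 2.00 and 0.929 FPKM in KO YFP+, against 12.6 and 10.7 FPKM in KO YFP-. The controls were level with KO YFP-, at 10.2 and 9.83 FPKM (WT YFP+) and 10.7 and 9.70 FPKM (SRC-3ff), which left KO YFP+ alone below the other 3 groups. The knockout sort difference was -2.39 ± 0.22 (limma adjusted p = 0.0038), the control one -0.02 ± 0.22 (adjusted p = 0.96) and their difference -2.37 ± 0.31 (adjusted p = 0.038). The call on their difference was lost with a pseudocount of 0.1 and with no filter. That last call held in 1 of 8 fits without a library, without KO YFP+ 84, and reached an adjusted p of up to 0.12 in the others, while the knockout call held in 8 of 8. Its promoter window is shown because the gene differs within knockout animals and not between control groups; the 250 bases before the RefSeq start site (GRCm38.p6, chr14:25458935-25459184, plus strand, 64.8% G or C) held none of the 4 motifs searched below.

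Zmiz1: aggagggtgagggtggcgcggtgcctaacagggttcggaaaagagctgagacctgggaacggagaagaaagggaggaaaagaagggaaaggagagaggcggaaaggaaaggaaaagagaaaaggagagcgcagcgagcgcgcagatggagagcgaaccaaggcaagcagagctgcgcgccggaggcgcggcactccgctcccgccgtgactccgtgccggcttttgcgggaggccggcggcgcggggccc

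Tcea1 and Tox2 were also lowest in KO YFP+, although only in Tcea1 were the controls level with KO YFP-. Both were picked after their values were seen, since the naming rule asked for larger differences or levels. Tcea1, an elongation factor that restarts stalled RNA polymerase II, measured 3.89 and 4.06 FPKM in KO YFP+ and 14.6 and 15.8 FPKM in KO YFP-. The control libraries lay above KO YFP+, at 14.1 and 15.5 FPKM for WT YFP+ and 16.3 and 17.6 FPKM for SRC-3ff. The difference of sort differences was -1.52 ± 0.16 (adjusted p = 0.019) and the knockout sort difference -1.70 ± 0.12 (adjusted p = 0.0024), called without each library. Tox2, an HMG-box transcription factor of T and natural killer (NK) cells, measured 0.053 and 0.0485 FPKM in KO YFP+, 4.99 and 3.84 FPKM in KO YFP-, 1.63 and 1.80 FPKM in WT YFP+ and 2.57 and 2.97 FPKM in SRC-3ff. KO YFP+ and KO YFP- were its lowest and highest groups, with a difference of sort differences of -1.89 ± 0.26 (adjusted p = 0.042). The difference was called in 1 of 8 fits without a library for Tcea1, without WT YFP+ 23 (adjusted p up to 0.097), and in 0 of 8 for Tox2 (adjusted p from 0.10 to 0.16). With the mouse block it was lost for Tox2 (adjusted p = 0.068).

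By the rule for the group that stands apart, a pair of genes had KO YFP+ apart on the high side. Aldh2, the mitochondrial aldehyde dehydrogenase, measured 11.8 and 12.8 FPKM in KO YFP+ and 4.24 and 4.02 FPKM in KO YFP-, with 6.55 and 6.91 FPKM in WT YFP+ and 6.19 and 6.18 FPKM in SRC-3ff. The control groups lay between the knockout fractions without overlap. The difference was 1.27 ± 0.18 (adjusted p = 0.042), lost in 8 of 8 fits without a library (adjusted p from 0.10 to 0.17) and with the mouse block (adjusted p = 0.078). The other by that rule was the predicted gene Gm23394, which was also high in SRC-3ff and is described further below. Ado, the thiol dioxygenase that oxidizes N-terminal cysteine of proteins, measured 12.9 and 12.5 FPKM in KO YFP+ and between 4.59 and 6.34 FPKM in the other 6 libraries, again without overlap. Its knockout sort difference of 0.99 ± 0.17 was called (adjusted p = 0.022, lost without any 1 of the 4 knockout libraries, up to 0.12), its control one was -0.09 ± 0.17 (adjusted p = 0.77), and their difference of 1.09 ± 0.23 was not called (adjusted p = 0.16).

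Other immune genes had a called knockout sort difference and an uncalled difference of sort differences. Cebpb, a bZIP transcription factor, measured 7.21 and 6.71 FPKM in KO YFP+ and 24.2 and 19.7 FPKM in KO YFP-, with 12.1 to 15.5 FPKM in the control libraries, and its difference was -1.39 ± 0.21 (adjusted p = 0.058). H2-Ob, a chain of the H2-O modulator of peptide loading onto MHC class II, measured 22.6 and 26.1 FPKM in KO YFP+, 11.2 and 11.2 FPKM in KO YFP- and 14.4 to 19.2 FPKM in controls, a difference of 1.26 ± 0.19 (adjusted p = 0.056). In a further pair KO YFP- was the low group. Il2ra, the high-affinity interleukin-2 receptor chain, measured 43.5 and 42.8 FPKM in KO YFP- and 83.1 to 113 FPKM in the other 6 libraries. Its knockout sort difference was 1.11 ± 0.12 (adjusted p = 0.006, and 0.053 without KO YFP+ 84), its control one 0.25 ± 0.12 (adjusted p = 0.24), and the difference of 0.85 ± 0.17 was not called (adjusted p = 0.14). Gpr83, a receptor enriched in Tregs, was likewise lowest in KO YFP- at 31.8 and 27.6 FPKM, against 107 and 104 FPKM in KO YFP+, 124 and 100 FPKM in WT YFP+ and 87.1 and 69.2 FPKM in SRC-3ff (difference 1.29 ± 0.21, adjusted p = 0.079).

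In 5 genes (0.0354% of those tested) both sort differences were called in opposite directions: Akap12, Cuedc1, Swap70, Rpl15-ps6 and Gm23394. Akap12, a scaffold for protein kinase A, measured 0.471 and 0.389 FPKM in KO YFP+ and 1.91 and 2.31 FPKM in KO YFP-, but 2.22 and 2.66 FPKM in WT YFP+ and 0.526 and 0.398 FPKM in SRC-3ff. Thus 2 groups were low and 2 high, crossing the sorts, and the difference was -2.35 ± 0.26 (adjusted p = 0.02). It was called in 0 of 8 fits without a library (adjusted p from 0.052 to 0.10), and its knockout call was lost without any 1 of the 4 knockout libraries (adjusted p up to 0.12). Swap70, a guanine exchange factor of lymphocytes, went the other way, at 19.7 and 26.2 FPKM in KO YFP+, 12.6 and 7.87 FPKM in KO YFP-, 12 and 12.7 FPKM in WT YFP+ and 29.5 and 24.0 FPKM in SRC-3ff (2.16 ± 0.33, adjusted p = 0.058). Its knockout call held in 1 of 8 fits without a library (adjusted p up to 0.22) and its control call in 2 (up to 0.13), and both were lost with the block (adjusted p = 0.071 in knockouts and 0.055 in controls). With the mouse number as a block, 2 genes in place of 5 were called in opposite directions. Dropping KO YFP+ 84 or KO YFP+ 85 left 1, dropping KO YFP- 85, SRC-3ff 72 or WT YFP+ 24 left 2, and dropping WT YFP+ 23 left 3.

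**Figure D2:**
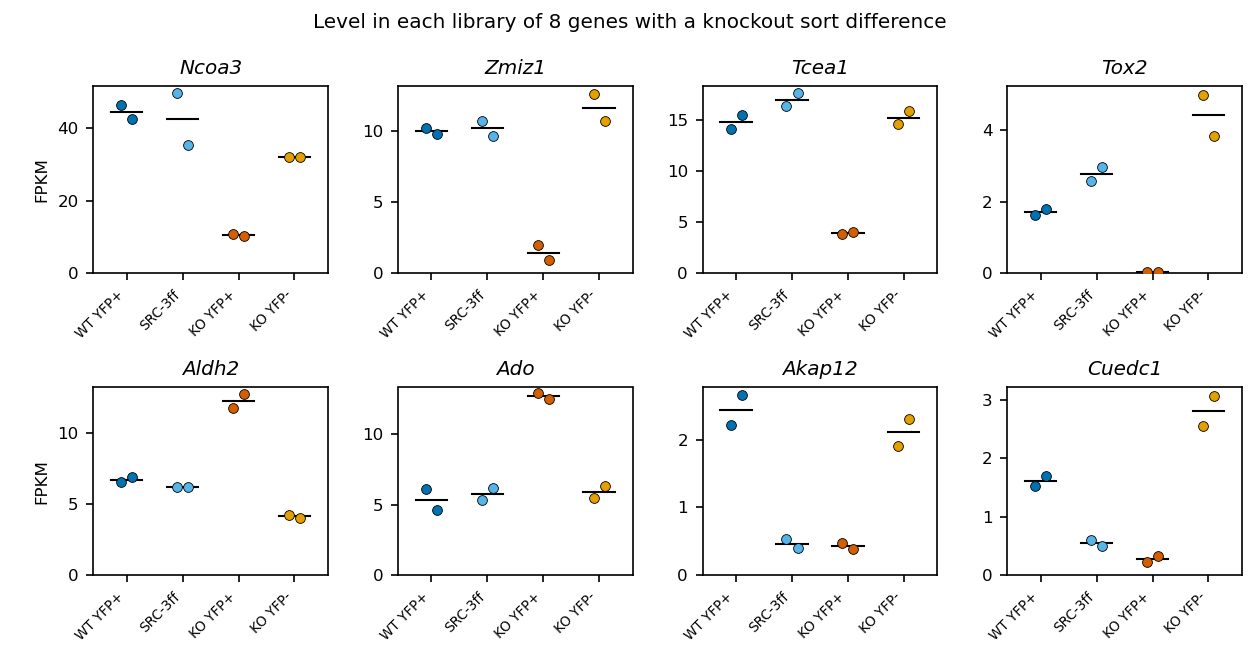
FPKM in each library (points) and group mean (line) for 8 genes, with the groups on the x axis. KO YFP+ lies apart from the other 3 groups in Ncoa3, Zmiz1, Tcea1, Aldh2 and Ado, while Akap12 is high in WT YFP+ and KO YFP- and low in the other groups; Ado was not called in the difference of sort differences.

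Most unequal sort differences were large in controls and near 0 within knockout animals. Supt16, a subunit of the histone chaperone FACT, measured 6.44 and 5.76 FPKM in WT YFP+ and between 39.5 and 51.0 FPKM in the other 6 libraries. Its difference of sort differences was 2.88 ± 0.16 (adjusted p = 0.003), with 0.06 ± 0.11 in knockouts and -2.83 ± 0.11 in controls. Dcaf13, a nucleolar protein of ribosomal RNA processing, ran the opposite way, at 34.7 and 38.0 FPKM in WT YFP+ and 4.47 to 5.61 FPKM elsewhere (-2.40 ± 0.17, adjusted p = 0.0086). Atp5e, the epsilon subunit of ATP synthase, measured 167 and 162 FPKM in WT YFP+ and 32.0 to 43.0 FPKM elsewhere (-2.33 ± 0.12, adjusted p = 0.0029). These 3 genes were the only ones of the 68 called in all 8 fits without a library and in all 7 other settings. In each of them WT YFP+ stood apart from all 3 other groups, including KO YFP+ of the same sort. WT YFP+ is also the only C57BL/6 group, so in these genes strain cannot be told apart from a sort difference present only in controls.

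Other genes with WT YFP+ apart shared this shape. Commd6, a COMM-domain protein, measured 9.23 and 12.3 FPKM in WT YFP+ and 51.4 to 60.5 FPKM elsewhere (2.40 ± 0.21, adjusted p = 0.014). Ube2l3, a ubiquitin-conjugating enzyme, measured 87.6 and 55.2 FPKM in WT YFP+ and 11.4 to 14.7 FPKM elsewhere (-2.21 ± 0.29, adjusted p = 0.038). Smarcd1, a subunit of SWI/SNF chromatin remodelers, measured 7.47 and 7.43 FPKM against 0.919 to 1.43 FPKM elsewhere (-2.06 ± 0.24, adjusted p = 0.026). None of their groups overlapped with WT YFP+. Commd6 was called in 4 of 8 fits without a library, Ube2l3 in 2 and Smarcd1 in 0, with adjusted p-values of up to 0.15. With the mouse block Ube2l3 (adjusted p = 0.068) and Smarcd1 (adjusted p = 0.052) were lost. Atp9a, a lipid flippase, fell between groups, with 7.68 and 10.4 FPKM in WT YFP+, 36.2 and 33.5 FPKM in SRC-3ff and 18.9 to 24.7 FPKM in the 4 knockout libraries (1.70 ± 0.24, adjusted p = 0.042, and 0.078 with the block).

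A pair of immune gene families was unequal in the same direction. The Ifi200 family encodes nucleic acid sensors and interferon-inducible nuclear proteins in a cluster on chromosome 1. Of its 10 tested members, 3 were called lower in the difference of sort differences, 4 higher in the control sort difference and 0 in the knockout one. The shares over all tested genes were 0.311%, 3.73% and 4.90%. Ifi206 measured 35.1 and 38.8 FPKM in WT YFP+ and 1.93 to 5.97 FPKM elsewhere, and its difference of -4.00 ± 0.33 was called (adjusted p = 0.013). Ifi208 measured 25.5 and 29.6 FPKM in WT YFP+ and 4.96 to 10.2 FPKM elsewhere (-2.06 ± 0.26, adjusted p = 0.036). Ifi213 measured 3.33 and 3.71 FPKM in WT YFP+ and 0.311 to 1 FPKM elsewhere (-2.04 ± 0.27, adjusted p = 0.038). The block removed the calls on Ifi208 and Ifi213 (adjusted p = 0.068 for both), and without a library neither was called, while Ifi206 was lost without WT YFP+ 24 or KO YFP- 85 (adjusted p up to 0.074). The summed level of the whole list was 188 to 191 FPKM in WT YFP+ and 85.0 to 106 FPKM in the other groups.

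The windows of these 3 genes are shown because they are closely related copies. They lie before the start site, so they do not show whether reads were split between the genes, which was not tested. Each line gives the 250 bases before the RefSeq start site (GRCm38.p6), in the direction of the gene. They lie at chr1:173491319-173491568 (minus strand) for Ifi206, chr1:173673415-173673664 (plus strand) for Ifi208 and chr1:173599273-173599522 (minus strand) for Ifi213. Capitals mark a match to the forkhead motif TGTTTAC.

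Ifi206: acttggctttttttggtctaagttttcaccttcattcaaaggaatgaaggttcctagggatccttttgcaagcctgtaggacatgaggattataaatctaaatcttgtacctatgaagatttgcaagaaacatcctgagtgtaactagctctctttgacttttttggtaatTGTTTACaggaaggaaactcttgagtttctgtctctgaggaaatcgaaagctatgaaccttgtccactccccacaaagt

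Ifi208: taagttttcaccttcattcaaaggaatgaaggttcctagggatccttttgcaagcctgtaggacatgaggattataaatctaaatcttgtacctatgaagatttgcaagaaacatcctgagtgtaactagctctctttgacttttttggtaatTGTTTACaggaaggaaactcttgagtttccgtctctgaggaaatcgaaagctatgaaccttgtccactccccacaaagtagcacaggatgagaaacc

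Ifi213: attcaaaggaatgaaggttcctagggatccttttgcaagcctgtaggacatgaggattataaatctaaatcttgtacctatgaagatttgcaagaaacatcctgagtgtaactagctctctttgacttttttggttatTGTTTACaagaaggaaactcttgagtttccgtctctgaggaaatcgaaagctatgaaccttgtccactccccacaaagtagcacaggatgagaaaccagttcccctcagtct

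The windows of Ifi206 and Ifi208 share an identical run of 182 bases, and each shares 135 with that of Ifi213. The motif starts 79 bases before the start site in Ifi206, 97 in Ifi208 and 112 in Ifi213, within the related stretch. Of the 9 family members with a window, these 3 held the motif and were also the 3 called, and the other 6 had neither. As copies of a related stretch, the 3 windows are not independent matches, and a link between motif and call was not tested. Both strands of the same 250 bases were searched for 4 motifs, the forkhead motif (TGTTTAC or GTAAACA), the T-box motif (AGGTGTGA or TCACACCT), the AP-1 motif (TGAGTCA or TGACTCA) and the STAT5 core (TTCNNNGAA). No motif contains another. The forkhead motif was in 3.17% of all 32851 RefSeq windows, 2.64% of the 8438 tested genes with a window and 9.68% of the 31 called genes with one, all 3 of them these copies.

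The MHC class I and Ib genes, which encode presenting molecules for CD8 T and NK cells, included 20 tested members. In them, 3 were called lower in the difference of sort differences, 9 higher in the control sort difference and 0 in the knockout one. The shares over all tested genes were 0.311%, 3.73% and 4.90%. H2-Q4 measured 83.6 and 94.9 FPKM in WT YFP+, 18.4 and 15.2 FPKM in SRC-3ff and 27.2 to 28.8 FPKM in the knockout libraries (-2.38 ± 0.17, adjusted p = 0.0086), and was lost without KO YFP- 85 alone (adjusted p = 0.057). H2-Q1 measured 72.7 and 82.7 FPKM in WT YFP+, 31.7 and 30.7 FPKM in SRC-3ff and 40.3 to 44.0 FPKM in the knockout libraries (-1.26 ± 0.14, adjusted p = 0.02). H2-Q2 measured 21.4 and 25.1 FPKM in WT YFP+ and 3.04 to 5.33 FPKM elsewhere (-2.20 ± 0.31, limma adjusted p = 0.045, and 0.052 with the block). Its difference was called in 1 of the 7 settings that keep all libraries. H2-Q1 and H2-Q2 were each called in 1 of 8 fits without a library. These near-identical copies, like the T cell receptor alpha variable segments, can take reads from each other, and their sequences vary between mouse strains. Of 111 tested segments of that kind, 14 were called in the difference, 11 lower and 3 higher, as were 2 of 91 immunoglobulin heavy chain variable segments. The share over all tested genes was 0.481%. Of the remaining called genes, 16 were predicted genes or pseudogenes.

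In 14 called genes SRC-3ff stood apart. Rpl34, a ribosomal protein gene, measured 9.70 and 7 FPKM in SRC-3ff, 122 and 69.2 FPKM in WT YFP+ and 62.9 to 76.8 FPKM in the knockout libraries (-3.06 ± 0.36, adjusted p = 0.026). It was the only one of 76 tested cytosolic ribosomal protein genes called in the difference. The share over all tested genes was 0.481%, so a single call is near that share. Hivep3, a zinc finger transcription factor, measured 0.686 and 1.05 FPKM in SRC-3ff and 6.07 to 9.60 FPKM elsewhere (-2.44 ± 0.32, adjusted p = 0.038). Both were lost with the block (adjusted p = 0.055 for Rpl34 and 0.068 for Hivep3). Without a library, Rpl34 was called in 2 of 8 fits and Hivep3 in 1. Mir6936, a microRNA locus, was lowest in SRC-3ff at 1.90 and 1.98 FPKM, against 4.11 to 6.77 FPKM elsewhere (-1.74 ± 0.22, adjusted p = 0.035, and 0.068 with the block); these libraries do not select small RNA.

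Another 4 genes were near 0 outside SRC-3ff. Upp1, uridine phosphorylase, measured 6.66 and 5.87 FPKM there and 0.244 FPKM at most elsewhere, with both WT YFP+ libraries listed at 0. Cntn1, a neuronal adhesion protein, measured 5.20 and 5.89 FPKM in SRC-3ff and 0.0558 FPKM at most elsewhere. Cx3cl1, the ligand of Cx3cr1, measured 5.10 and 5.92 FPKM and 0.127 FPKM at most elsewhere, and Nrg2, a neuregulin, 5.54 and 5.11 FPKM and 0.203 FPKM at most elsewhere. These genes reached 1 FPKM only in SRC-3ff, so they passed the filter through the group where they were high. Their p-values are therefore no separate support. Their differences ran from 2.51 ± 0.26 (Nrg2, limma adjusted p = 0.017) to 2.71 ± 0.26 (Upp1, limma adjusted p = 0.015). Each was called in 2 or fewer of 8 fits without a library (adjusted p up to 0.088).

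A pair of innate receptor genes fell in both sort differences by unequal amounts. Fcer1g, the signalling chain of Fc and NK receptors, measured 20.0 and 21.3 FPKM in SRC-3ff, 5.25 and 4.60 FPKM in KO YFP- and 0.0646 FPKM at most in the YFP+ libraries. Its sort difference was -2.48 ± 0.16 in knockouts (adjusted p = 0.0024) and -4.40 ± 0.16 in controls (adjusted p = 0.00017), and the difference was 1.92 ± 0.23 (adjusted p = 0.026). Klrb1b, an inhibitory lectin-like receptor of NK cells, measured 11.7 and 14.1 FPKM in SRC-3ff, 2.11 and 2.24 FPKM in KO YFP- and 0.122 FPKM at most in the YFP+ libraries (2.04 ± 0.25, adjusted p = 0.034). Without a library both were lost in 8 of 8 fits, and with the block Fcer1g reached an adjusted p of 0.052 and Klrb1b of 0.068. Fcer1g was the only one of 15 tested genes of NK and innate-like T cells called in the difference, beside 0.481% of all tested genes.

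**Figure D3:**
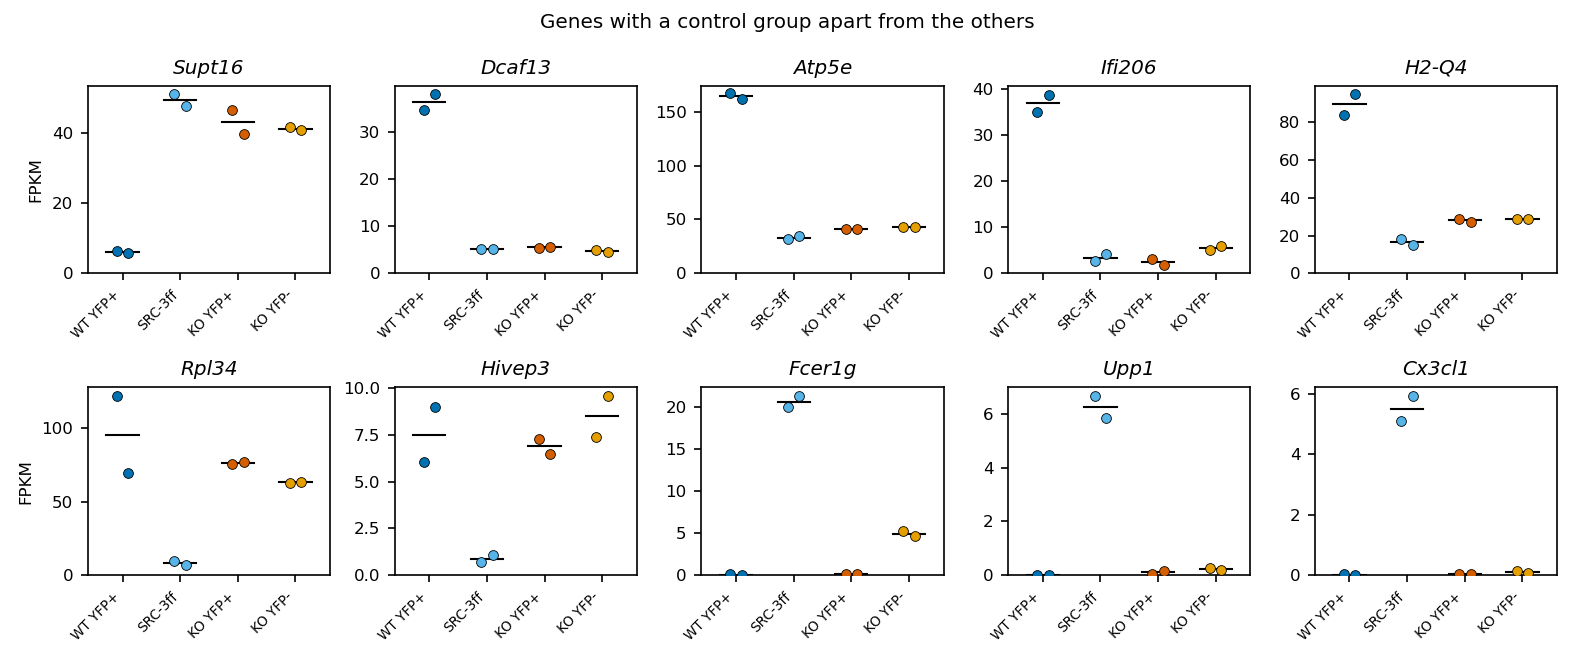
FPKM in each library (points) and group mean (line) for 10 genes called in the difference of sort differences, with the groups on the x axis. WT YFP+ stands apart in the top row, where Supt16 measured 6.44 and 5.76 FPKM against 39.5 FPKM or more elsewhere, and SRC-3ff stands apart in the bottom row.

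Turning to the sort differences that agreed, Foxp3 itself was lower in YFP+ cells of both. It measured 21.0 and 22.9 FPKM in KO YFP+ and 161 and 113 FPKM in KO YFP-, and 31.0 and 19.9 FPKM in WT YFP+ and 205 and 151 FPKM in SRC-3ff. The YFP+ libraries lay below the others in both comparisons, by -2.56 ± 0.26 in knockouts (adjusted p = 0.0047) and -2.78 ± 0.26 in controls (adjusted p = 0.0018). The difference was 0.21, with a 95% interval from -0.65 to 1.07 (adjusted p = 0.89). Among other Treg markers, Ctla4 lay between 48 and 82.8 FPKM and Ikzf2 between 11.8 and 28.5 FPKM with neither sort difference called. Of 21 tested Treg identity genes, 4 rose and 2 fell in knockouts, 3 rose and 3 fell in controls, and 0 were called in the difference. Over all tested genes 1.44% rose and 3.46% fell in knockouts, 3.73% rose and 5.49% fell in controls, and 0.481% were called in the difference. Ikzf4 and Bach2, transcriptional regulators, rose in both, by 1.10 and 0.87 in knockouts and 0.70 and 0.69 in controls, and Gata3 fell in both, by 0.78 in knockouts and 1.01 in controls. The calls on these 3 depended on single libraries (Ikzf4 and Bach2 in controls held in 1 of 8 fits, with adjusted p-values of up to 0.20 and 0.23), and with the block Bach2 was not called in either (adjusted p = 0.058 in knockouts and 0.07 in controls).

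Effector Treg genes formed the largest agreeing block among the lists, by count. By share, more of the NK and innate-like T cell list agreed (11 of 15), and the lists overlap, with Gzmb in both. Of 31 tested members 18 fell in knockouts and 20 in controls, 0 rose in either, 17 fell in both and 0 were called in the difference. Over all tested genes 3.46% fell in knockouts, 5.49% in controls and 2.34% in both. Only 0.481% were called in the difference, so 0 of 31 is near that share and does not show agreement. The same shares stand beside the NK, plasma cell, B cell, T helper and MHC class II lists below. Their median sort difference was -1.39 in knockouts and -1.50 in controls, beside -0.024 and -0.025 over all tested genes. Cxcr6, a chemokine receptor of tissue lymphocytes, measured 4.27 and 6.34 FPKM in KO YFP+, 253 and 457 FPKM in KO YFP-, 3.59 and 3.72 FPKM in WT YFP+ and 153 and 295 FPKM in SRC-3ff. Its sort differences were -5.78 ± 0.37 in knockouts (adjusted p = 0.0024) and -5.52 ± 0.37 in controls (adjusted p = 0.0007), both called without each library. Lgals3, the lectin galectin-3, measured 5.32 and 7.73 FPKM in KO YFP+ and 182 and 186 FPKM in KO YFP-, and 0.415 and 2.21 FPKM in WT YFP+ and 156 and 298 FPKM in SRC-3ff. It fell by 4.64 ± 0.43 in knockouts and 6.67 ± 0.43 in controls, and the difference of 2.03 ± 0.61 was not called (adjusted p = 0.32). Cxcr3, a receptor of T helper 1-like cells, fell by 2.43 ± 0.13 in knockouts, from 171 and 223 FPKM to 33.8 and 37.0 FPKM. In controls it fell by 1.37 ± 0.13, from 81.4 and 87.6 FPKM to 31.4 and 32.6 FPKM, and the difference of -1.06 ± 0.19 was not called (adjusted p = 0.099).

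Further effector genes fell in both. Tbx21, which encodes the T-bet transcription factor, fell by 3.33 in knockouts and 2.08 in controls, Id2 by 3.33 and 3.49, Ccr2 by 3.31 and 3.56 and Klrg1 by 3.17 and 3.21. Anxa1, a phospholipid-binding annexin, had sort differences of -3.56 and -4.43, from 24.9 and 33.3 FPKM in KO YFP- and 31.8 and 54.2 FPKM in SRC-3ff to 0.797 to 1.69 FPKM in the YFP+ libraries. Outside that list, the naming rule also gave Pxdc1, Adgrg5, Tmem176a, Cd163l1 and Ly6g5b, with sort differences of -4.21 to -3.52 in knockouts and -4.91 to -3.56 in controls. Of 16 tested chemokine receptor genes, 7 agreed, beside 2.99% of all tested genes. Ccr2, Ccr6, Ccr9, Ccr10, Cxcr3 and Cxcr6 fell in both and Ccr7 rose in both.

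Genes of other lymphocytes moved with this block. Of 15 tested NK and innate-like T cell genes, 13 fell in knockouts and 11 in controls, with medians of -2.48 and -2.40. Klrk1, the activating receptor NKG2D, measured 0.0239 and 0.0835 FPKM in KO YFP+, 25.7 and 49.3 FPKM in KO YFP-, 0.0359 and 0.00794 FPKM in WT YFP+ and 24.0 and 51.1 FPKM in SRC-3ff. The summed level of the 20 genes in that list was 40.0 to 45.7 FPKM in WT YFP+, 56.1 to 72.2 FPKM in KO YFP+, 202 to 274 FPKM in SRC-3ff and 382 to 571 FPKM in KO YFP-. The NK receptor gene Ncr1 was listed at 0 in all 4 YFP+ libraries and measured 2.19 to 4.48 FPKM in the others. Fewer cells of a type and less RNA per cell cannot be told apart in these bulk samples.

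Plasma and B cell genes did the same. Of 12 tested plasma cell genes, 4 fell in knockouts and 5 in controls. Jchain, the joining chain of secreted antibody, measured 22.4 and 29.3 FPKM in KO YFP+, 375 and 247 FPKM in KO YFP-, 9.42 and 44.6 FPKM in WT YFP+ and 266 and 790 FPKM in SRC-3ff. Its knockout call was lost without any 1 of the 4 knockout libraries (adjusted p up to 0.19) and with the block (adjusted p = 0.074), and its control call without SRC-3ff 72 (adjusted p = 0.087). The summed plasma cell list was 160 to 200 FPKM in WT YFP+, 164 to 165 FPKM in KO YFP+, 467 to 1086 FPKM in SRC-3ff and 459 to 612 FPKM in KO YFP-. Of 11 tested B cell genes, 5 fell in knockouts and 7 in controls, and the summed level of the 18 listed was 50.2 to 65.6 FPKM in WT YFP+, 79.2 to 89.8 FPKM in KO YFP+, 422 to 696 FPKM in SRC-3ff and 239 to 331 FPKM in KO YFP-. The B cell gene Pax5 reached 0.00764 FPKM at most. Blk, a Src-family kinase of B and some T cells, fell by 4.88 in knockouts and 5.39 in controls. The part of these cell types in the agreeing genes was not tested.

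T helper and gamma delta T cell genes were also among them. Of 14 tested members of that list, 7 fell in knockouts, 5 fell and 1 rose in controls, and 5 fell in both. Il4, a T helper 2 cytokine, measured 0.0645 and 0 FPKM in KO YFP+, 9.32 and 12.7 FPKM in KO YFP-, 0.0764 and 0.116 FPKM in WT YFP+ and 3.15 and 5.26 FPKM in SRC-3ff, with the YFP+ libraries lower in both. Its difference of sort differences of -1.31 ± 0.35 was not called (adjusted p = 0.27). The gamma delta T cell genes Trdc and Sox13 had sort differences of -3.63 and -3.52 in knockouts and -3.76 and -4.22 in controls.

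Of 11 tested MHC class II presentation genes, 5 fell and 2 rose in knockouts, 6 fell in controls, 5 fell in both and 0 were called in the difference, with medians of -1.17 and -1.77. H2-Eb1, a class II beta chain, measured 2.76 and 1.77 FPKM in KO YFP+, 11.1 and 7.55 FPKM in KO YFP-, 0.142 and 0.783 FPKM in WT YFP+ and 23.1 and 34.4 FPKM in SRC-3ff. Its difference of 2.70 ± 0.45 was not called (adjusted p = 0.08), and its knockout fall of 1.66 was lost without any 1 of the 4 knockout libraries (adjusted p up to 0.18). Cd74, the invariant chain, fell by 1.46 in knockouts and 2.97 in controls, with a difference of 1.51 ± 0.41 (adjusted p = 0.27). The B cell list, which also holds H2-Ab1, H2-Aa, H2-Eb1 and Cd74, moved with these values, and its part was not tested.

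Of 19 tested genes of resting, recirculating lymphocytes, 7 rose and 2 fell in knockouts and 6 rose and 2 fell in controls. In both, 5 rose and 2 fell, and 0 were called in the difference. The shares of all tested genes that rose were 1.44% in knockouts, 3.73% in controls and 0.651% in both. Only 0.481% of all tested genes were called in the difference, so 0 of 19 is near that share. Ccr7, the lymph node homing receptor, measured 392 and 392 FPKM in KO YFP+, 135 and 125 FPKM in KO YFP-, 410 and 490 FPKM in WT YFP+ and 244 and 191 FPKM in SRC-3ff. It rose by 1.58 ± 0.14 in knockouts (adjusted p = 0.0038) and 1.05 ± 0.14 in controls (adjusted p = 0.0068). Foxp1, a forkhead factor of quiescent T cells, measured 70.0 and 77.0 FPKM in KO YFP+, 29.4 and 28.7 FPKM in KO YFP-, 78.2 and 81.6 FPKM in WT YFP+ and 16.8 and 23.0 FPKM in SRC-3ff. It rose by 1.31 ± 0.15 in knockouts (adjusted p = 0.0064, and 0.057 without KO YFP+ 85) and 1.97 ± 0.15 in controls (adjusted p = 0.00093). Lef1, a transcription factor of naive T cells, rose by 0.82 in knockouts and 0.77 in controls. Il7r, the interleukin-7 receptor chain, and Ccr9 fell instead, Il7r by 2.07 in knockouts and 2.87 in controls.

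The other genes that rose in both came from no single list. Prg4, which encodes lubricin, measured 12.3 and 13.5 FPKM in KO YFP+, 4.25 and 3.78 FPKM in KO YFP-, 9.62 and 11.8 FPKM in WT YFP+ and 4.05 and 2.63 FPKM in SRC-3ff. Its rises of 1.47 ± 0.20 and 1.44 ± 0.20 differed by 0.03 (95% interval -0.63 to 0.69), and the knockout one was lost on dropping KO YFP- 85 or either KO YFP+ library (adjusted p up to 0.08). Itga6, the alpha-6 integrin, rose by 1.29 and 1.04, Ecm1, an extracellular matrix protein, by 1.43 and 1.20, and Rgs10, a regulator of G-protein signalling, by 1.19 and 1.72. Tmie, Als2cl, Chchd10 and Ndrg2 rose by 1.20 to 1.59 in knockouts and 0.93 to 1.41 in controls. Of 76 tested ribosomal protein genes 9 rose in knockouts and 19 in controls, 0 fell, and 5 rose in both, with medians of 0.40 and 0.42. Over all tested genes 1.44% rose in knockouts and 3.73% in controls. With median-of-ratios scaling 18 of the 76 were called in knockouts and 24 in controls.

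**Figure D4:**
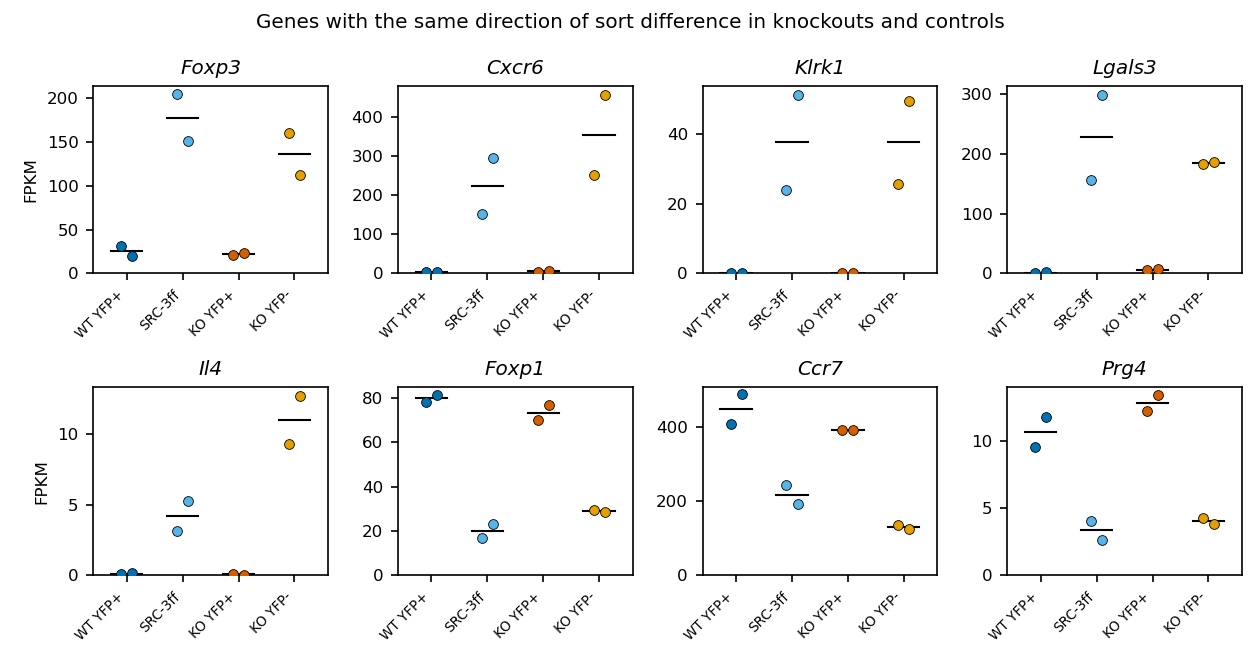
FPKM in each library (points) and group mean (line) for 8 genes called in the same direction in both sort differences, with the groups on the x axis. Foxp3, Cxcr6, Klrk1, Lgals3 and Il4 are lower in both YFP+ groups, and Foxp1, Ccr7 and Prg4 are higher.

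Over the 423 agreeing genes the sizes were close in the median, which the selection on calls in both partly builds in. Genes higher in YFP+ cells had a median of 0.72 in knockouts and 0.75 in controls, and genes lower had -1.89 and -2.06. Over all knockout calls the median absolute sort difference was 1.31 in knockouts and 0.94 in controls. Over all control calls it was 1.12 in controls and 0.53 in knockouts. The control value was the larger in 226 of the 423, 40 of 92 among the higher and 186 of 331 among the lower. For 362 of the 423 the 95% interval of the difference included 0, and 5 were also called in the difference. Leaving out 1 library gave between 100 agreeing genes (without KO YFP+ 85) and 457 (without SRC-3ff 68). Dropping KO YFP+ 84 left 113, KO YFP- 84 left 221, KO YFP- 85 left 176, SRC-3ff 72 left 218, WT YFP+ 23 left 249 and WT YFP+ 24 left 215. For 41 agreeing genes named here, the calls were followed through these fits. Both calls held without each library in 19, the knockout call in 20 and the control call in 31.

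Beyond these, 265 genes were called in knockouts and not in controls, and 875 in controls and not in knockouts. Only 6 of the 265 and 53 of the 875 were called in the difference of sort differences, so a call on 1 side was seldom a called difference between sides. In the promoter windows of the 331 genes lower in both, 178 of which had a window, the AP-1 motif was found in 18 (10.1%), against 298 of 8438 tested genes (3.53%) and 4.46% of all windows. The 18 include the list members Gzmb, Fgl2, Anxa2 and Slamf7. The STAT5 core was in 20 (11.2%), against 7.05% of tested genes, and the forkhead motif in 7 (3.93%). These shares describe letters in the windows and were not tested.

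**Figure D5:**
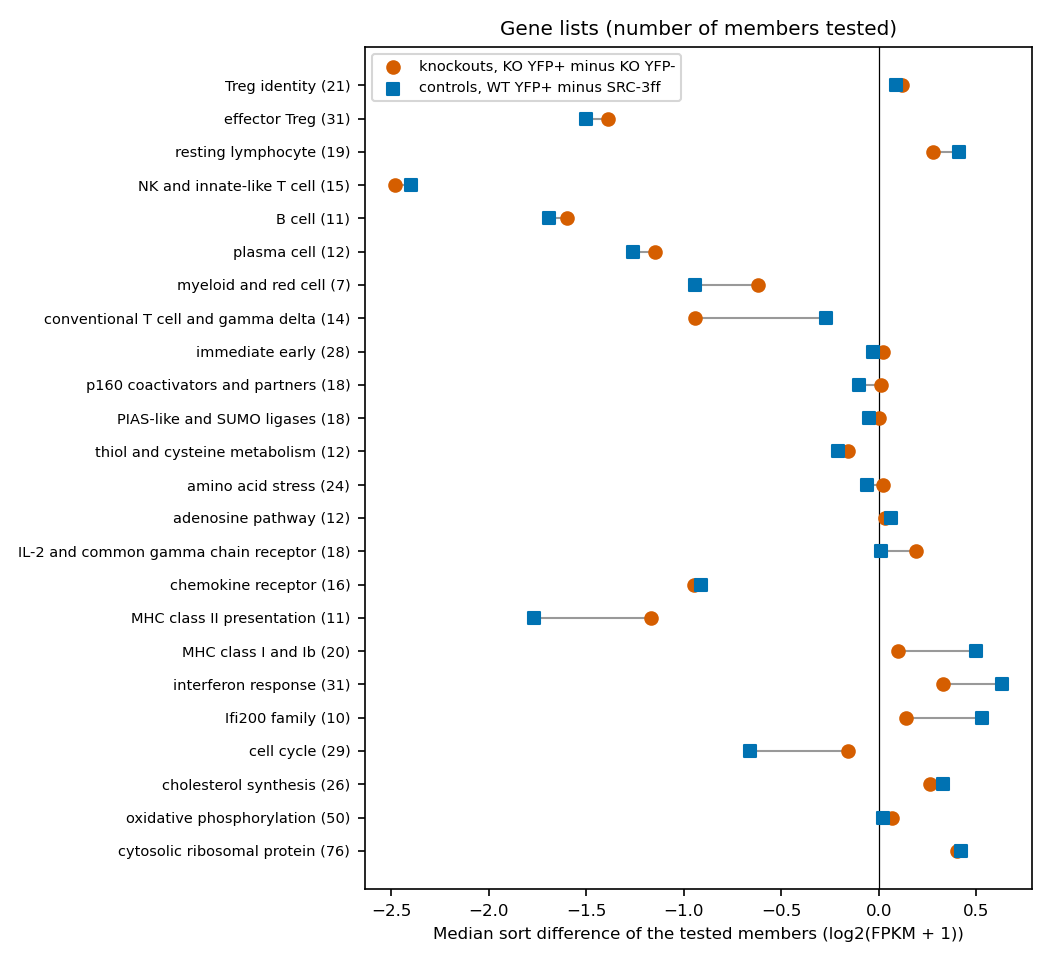
Median sort difference of the tested members of 24 gene lists in knockouts (circles) and in controls (squares) on log2(FPKM + 1), with the number of members tested beside each name. Effector Treg, NK, B and plasma cell lists lie below 0 in both, with effector Treg genes at -1.39 and -1.50, while the Ifi200 and MHC class I lists lie farther above 0 in controls.

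For the remaining lists, the shares of all tested genes that rose were 1.44% in knockouts and 3.73% in controls, and the shares that fell 3.46% and 5.49%. Of 31 tested interferon response genes 3 rose in knockouts and 7 in controls, with 0 called in the difference. Over all tested genes 0.481% were called in the difference, so 0 of 31 is near that share. Of 29 cell cycle genes, 1 fell in knockouts and 2 in controls; Ccnd3, a D-type cyclin, fell in both, by 0.79 and 0.72. Of 26 cholesterol synthesis genes 2 rose in knockouts and 3 in controls. Of 18 genes of interleukin-2 and common gamma chain receptors, 2 rose and 2 fell in knockouts and 2 fell in controls. Nt5e, the ectoenzyme that makes extracellular adenosine, measured 50.5 and 45.7 FPKM in WT YFP+ and 30.9 to 42.1 FPKM elsewhere, and its difference of -0.77 ± 0.14 was not called (adjusted p = 0.10).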

How the data were processed

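Total RNA of sorted splenic Tregs was made into SMART-Seq v4 libraries, per the labels' protocols. The authors deposited FPKM per gene for 55487 genes and 8 libraries, made with Trim Galore, STAR and StringTie on mm10 (GRCm38), per the submitters' processing notes. The sources used here do not give versions, annotation or use of strand. Depth is unknown. The 13 mitochondrial protein genes are listed at 0 throughout, so a 0 can be a missing estimate. Gene identifiers were matched to GENCODE M21 (55227 of 55487).

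limma 3.58.1 in R 4.3.3 (lmFit, eBayes with a trend) was fitted to log2(FPKM + 1) with 4 group means and 4 residual degrees of freedom, for genes reaching 1 FPKM in 2 or more libraries. Such fold changes understate those of low genes. P-values measure the spread between these libraries, which may be technical. Mice 84 and 85 gave both knockout fractions, so their numbers pair the samples (correlation of deviations 0.137 over 14134 genes). The reported fit does not use this pairing, which entered only in the setting with the replicate block. Leaving a group with 1 library assumes that it varies like the others.

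The members, the 26 gene lists, the alternatives and the naming rule were chosen with earlier results of these data known. The rule named Ncoa3, Zmiz1, Ado and Foxp3, then the 12 largest called differences in each direction where a group averaged 5 FPKM or more (no predicted genes, clones, pseudogenes or receptor segments), the 10 strongest agreeing genes in each direction, opposite calls under the same conditions and up to 4 genes per list. Python 3.11.15, pandas 2.3.3 and matplotlib 3.10.9 were used. Promoter windows are from RefSeq (GRCm38.p6).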

Additional observations from a re-analysis of the deposited data

Results flagged for a closer look

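There were 4 genes with sort differences called in opposite directions whose difference was itself called by limma. Cuedc1, a CUE-domain protein, fell by 1.59 in knockouts and rose by 0.75 in controls, a difference of -2.34; its control call was lost in all 8 fits without a library (adjusted p up to 0.22). Akap12 fell by 1.12 in knockouts and rose by 1.23 in controls, a difference of -2.35. The pseudogene Rpl15-ps6, whose reads can also fit Rpl15, rose by 0.51 in knockouts and had -0.96 in controls, a difference of 1.47. The predicted gene Gm23394 had 2.38 in knockouts and -1.82 in controls, a difference of 4.21, with values of 6.61 and 3.65 FPKM in KO YFP+, 0 and 0.298 FPKM in KO YFP-, 0 and 9.1e-05 FPKM in WT YFP+ and 1.98 and 3.21 FPKM in SRC-3ff.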

How the results depend on the processing

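The 68 called differences became 36 with a pseudocount of 0.1, 38 with a filter of at least 5 FPKM, 48 with the replicate block and 5 to 51 without 1 library. They became 72 with median-of-ratios scaling, 69 with quantile normalization and 76 without a variance trend. With no filter they became 86, of which 51 were higher and 35 lower, against 24 higher and 44 lower in the reported fit. Of the 68, 3 were called in all 8 fits without a library and 29 in none. The knockout calls became 226 with no filter on low values and ran from 140 to 739 without 1 library. The control calls became 717 with no filter and 667 with only the 4 libraries compared, and ran from 400 to 1127 without 1 library. Agreeing genes became 104 with no filter and ran from 100 to 457 without 1 library. Opposite calls became 2 with no filter, 3 without a variance trend, 2 with the replicate block and 1 to 5 without 1 library. The cause of these changes was not tested, apart from the fewer genes or samples in some. With the replicate block 37 of the 68 were still called and 31 were not. That block gave 557 knockout calls and 1235 control calls.

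Near-zero differences changed sign. Under quantile normalization the control sort difference was 0.07 for Zmiz1 and 0.01 for Ado, and the difference of sort differences was -0.07 for Klrk1. Without 1 library, the control sort difference ran from -0.16 to 0.32 for Ncoa3, from -0.09 to 0.04 for Zmiz1 and from -0.26 to 0.08 for Ado. The difference of sort differences ran from -0.10 to 0.52 for Foxp3, from -0.73 to 0.21 for Cxcr6 and from -0.51 to 0.55 for Klrk1. With 2 libraries a group and unknown depth, no difference of sort differences under 0.98 on the log2 scale was called.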
